A study of Mus musculus with 6 samples.

Results

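The genes described here build and maintain the chromatin of the centromere, the site on each chromosome where the spindle attaches. They were chosen by symbol: Cenpa, Cenpb, Cenpc1, Hjurp, Incenp, Oip5 and Mis18a. All 7 were present in the gene count tables, which hold 23366 genes, and all 7 passed the filter on low counts. The data are polyadenylated RNA from 3 knockout and 3 control embryos of the mouse, taken whole at E10.5, on a mixed C57BL/6, CD1 and 129 background. Knockout embryos were H3f3a fl/-, H3f3b fl/-, with a null and a floxed allele of both genes of histone H3.3. Control embryos were H3f3a fl/+, H3f3b fl/+. Every embryo of both groups carried 1 copy of the Sox2-Cre transgene (Tg/0), which drives recombination in the epiblast, and was Trp53-/-, without p53. The floxed alleles of the controls were thus open to deletion too, and extraembryonic cells may keep them. The labels give neither litters nor pooling, so each p-value speaks of the spread among these 6 samples, which may be technical.

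Centromeres are marked by CENP-A, the product of Cenpa, a histone H3 variant that takes the place of H3 in a subset of nucleosomes. CENP-A is not loaded in S phase but after mitosis: the MIS18 complex, which includes the products of Mis18a and Oip5, licenses the site, and the chaperone HJURP brings the new histone. CENP-C, from Cenpc1, binds CENP-A nucleosomes and joins them to the kinetochore, CENP-B binds a short motif in centromeric satellite DNA, and INCENP is the scaffold of the chromosomal passenger complex with Aurora B. In human cells histone H3.3 has been described as filling the place of CENP-A between replication and loading. In the mouse Cenpa and Cenpc1 lie on chromosome 5, Cenpb and Oip5 on chromosome 2, Hjurp on chromosome 1, Mis18a on chromosome 16 and Incenp on chromosome 19, while the targeted H3f3a is on chromosome 1 and H3f3b on chromosome 11.

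The start regions of 4 of the genes are shown, because Hjurp and Cenpb had the largest differences between the groups, in opposite directions, while Cenpa and Oip5 belong to the same loading pathway as Hjurp. Each runs from 250 bases before to 50 bases after the transcription start, 5′ to 3′ on the strand of the gene, from RefSeq on build GRCm38.p6. Capitals mark CCAAT, the box bound by NF-Y, and TTTGAA, the core of the cell cycle homology region of genes expressed in G2 and mitosis. Both were searched on both strands, so ATTGG and TTCAAA are marked as well, and no matches overlapped.
Cenpa, chr5:30666636-30666935, + strand: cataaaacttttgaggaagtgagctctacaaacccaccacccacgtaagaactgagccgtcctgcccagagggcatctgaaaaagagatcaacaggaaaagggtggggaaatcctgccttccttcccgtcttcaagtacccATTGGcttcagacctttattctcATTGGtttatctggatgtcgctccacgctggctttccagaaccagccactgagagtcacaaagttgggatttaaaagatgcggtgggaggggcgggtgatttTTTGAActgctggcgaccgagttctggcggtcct
Hjurp, chr1:88277530-88277829, - strand: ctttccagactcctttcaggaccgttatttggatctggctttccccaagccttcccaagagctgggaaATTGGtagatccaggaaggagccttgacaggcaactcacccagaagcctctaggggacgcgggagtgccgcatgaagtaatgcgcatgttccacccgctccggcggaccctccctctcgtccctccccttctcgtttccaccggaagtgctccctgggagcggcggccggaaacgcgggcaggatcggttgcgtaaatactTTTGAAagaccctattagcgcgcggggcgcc
Oip5, chr2:119618456-119618755, - strand: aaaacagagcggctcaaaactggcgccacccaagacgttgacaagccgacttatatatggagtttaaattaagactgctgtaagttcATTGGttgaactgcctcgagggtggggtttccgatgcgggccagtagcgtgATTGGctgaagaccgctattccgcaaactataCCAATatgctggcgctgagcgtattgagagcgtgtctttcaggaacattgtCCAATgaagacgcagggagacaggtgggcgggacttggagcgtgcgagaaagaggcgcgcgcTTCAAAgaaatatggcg
Cenpb, chr2:131180018-131180317, - strand: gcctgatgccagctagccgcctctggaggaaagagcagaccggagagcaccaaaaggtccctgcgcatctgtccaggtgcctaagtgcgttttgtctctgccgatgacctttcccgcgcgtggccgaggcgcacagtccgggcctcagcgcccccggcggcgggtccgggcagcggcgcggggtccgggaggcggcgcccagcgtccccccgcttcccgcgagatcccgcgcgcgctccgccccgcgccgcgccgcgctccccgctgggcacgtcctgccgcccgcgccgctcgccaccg
Of the 7 genes, 6 were found in the promoter table. TTTGAA was present in 3 of these 6, against 17.9% of all 32851 promoters of this length, and CCAAT in 4 of 6, against 37.4%. Counted from the transcription start, TTTGAA began at base 17 in Cenpa, at base 20 in Hjurp and, on the opposite strand, at base 34 in Oip5. Cenpb, which is made from a single exon, had neither motif in this window, and nor did Mis18a. A match is a stretch of letters only, and binding was not measured.

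The libraries held 24952853 to 27871038 counts in genes in the knockouts and 27775576 to 30461689 in the controls, and the 7 genes together gave 14174 to 16651 counts per library. H3f3a averaged 23.8 ± 1.03 CPM per kb in knockouts and 123 ± 5.42 CPM per kb in controls (SD, n = 3 each), where CPM is the count per 1e6 counts of the TMM-scaled library and lengths are those of the longest principal transcript in GENCODE. H3f3b averaged 181 ± 22.6 CPM per kb in knockouts and 275 ± 12.5 CPM per kb in controls. All 16 markers of brain, heart, muscle, liver bud, limb, neural crest and vessels passed the filter on low counts in these whole-embryo libraries. Of these, 1 was called by edgeR, the vessel marker Kdr, against 1.51% of all genes tested. Kdr was higher in the knockouts, at a log2 fold change of 0.44 (edgeR adjusted p = 0.0302). Folds were above 0 for 8 of the 16 markers and below 0 for 8. Macrophage markers were far lower in the knockouts, with 11 of 12 called lower (all but Cd68), a summed level of 3.36 to 4.93 CPM in knockouts against 60.0 to 72.1 CPM in controls, and C1qb and C1qc at 0 counts in all 3 knockouts. In whole embryos fewer cells of a type and less RNA per cell cannot be told apart, and the part of this difference in the values below was not tested. The share of alignments outside genes was 18.3%, 10.6% and 18.0% in knockouts 1, 2 and 3, against 9.79%, 10.7% and 13.1% in controls 1, 2 and 3, so knockouts 1 and 3 stand apart from the other 4 libraries.

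The comparison of knockouts with controls asked whether the transcripts of centromere chromatin differ between p53-null embryos of the knockout genotype and p53-null controls. None of the 7 genes was called by edgeR at an adjusted p under 0.05, nor by limma-voom, while DESeq2 called 1, Hjurp. The edgeR threshold was passed by 1.51% of 15075 genes tested, 0.551% as higher and 0.955% as lower in the knockouts. At an unadjusted p under 0.05 there were 2 of 7, Hjurp with the higher mean in the knockouts and Cenpb with the lower, against 19.2% of all genes tested, 10.7% with the higher and 8.53% with the lower mean. The groups did not overlap for 2 of 7, Cenpb and Incenp, against 24.1% of all genes, 11.8% with the knockouts above and 12.3% with the knockouts below. The median log2 fold change was -0.04 over the 7 genes and -0.0010 over all genes tested, with 3 folds above 0 and 4 below. Counts of 0 and 2 among 7 genes are too near these shares to set the 7 apart from all genes tested.

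**Figure D1:**
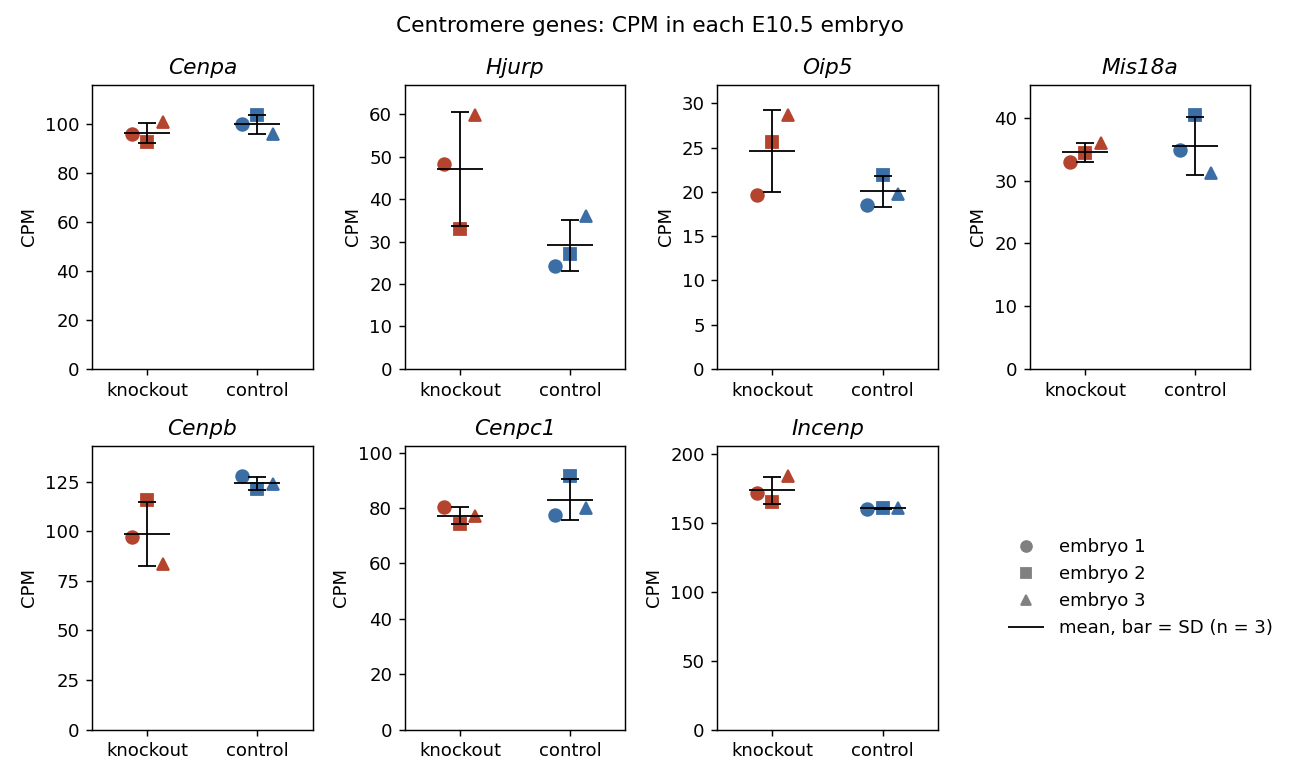
Level of each gene in CPM (vertical axis, from 0) in the 3 knockout embryos (red) and the 3 control embryos (blue), with marker shapes for embryos 1 to 3 and bars for the mean and SD. Cenpa lies between 92.7 and 104 CPM in all 6 libraries, while Hjurp runs from 24.3 to 59.7 CPM and Cenpb from 83.7 to 128 CPM.

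Cenpa, the gene of the centromeric histone itself, differed between the groups by less than the spread of the embryos. It had 2495, 2510 and 2938 counts in knockouts 1, 2 and 3, against 2918, 3045 and 2713 in controls 1, 2 and 3. Scaled to library size these were 96.1, 92.7 and 101 CPM in the knockouts and 100.1, 104 and 95.9 CPM in the controls. The groups overlapped, with the lowest library a knockout and the highest a control. The log2 fold change was -0.05 ± 0.07 (SE), with a 95% interval of -0.21 to 0.11 and an edgeR adjusted p of 0.731. The interval spans folds of 0.866 to 1.08 for the scaled embryo average in this fit, and levels per cell were not measured. Per length Cenpa was the most abundant of the 7, at 65.9 ± 2.78 CPM per kb in knockouts and 68.1 ± 2.63 CPM per kb in controls (SD, n = 3 each).

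Hjurp, the chaperone that delivers CENP-A, was the least abundant per length in both groups and had the widest range over the 6 libraries relative to its level. It had 1255, 893 and 1740 counts in knockouts 1, 2 and 3, against 709, 794 and 1016 in controls 1, 2 and 3. In CPM these were 48.4, 32.98 and 59.7 in the knockouts and 24.3, 27.0 and 35.9 in the controls. Knockouts 3 and 1 were the highest of all libraries, and knockout 2 lay below control 3, so the groups overlapped. The means were 47.0 ± 13.4 CPM in knockouts and 29.1 ± 6.06 CPM in controls (SD, n = 3 each), 1.62-fold higher in the knockouts. The log2 fold change was 0.69 ± 0.21 (SE), with a 95% interval of 0.21 to 1.18, an unadjusted p of 0.0106 and an edgeR adjusted p of 0.147. Hjurp was called without knockout 2 (0.89, edgeR adjusted p = 0.0087) and by DESeq2 (0.70, adjusted p = 0.0214). Over its 18 alternatives the adjusted p ran from 0.0087 to 0.727.

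Hjurp was highest in the libraries with the highest share of alignments outside genes. From the lowest share to the highest, Hjurp was at 24.3 CPM in control 1, 32.98 in knockout 2, 27.0 in control 2, 35.9 in control 3, 59.7 in knockout 3 and 48.4 in knockout 1. Knockout 2, with a share inside the range of the controls, also had Hjurp inside that range. With this share as a covariate the log2 fold change was 0.22 ± 0.13 (SE) and the edgeR adjusted p 0.358. Knockout 2 alone against the 3 controls gave 0.19 ± 0.19, with an edgeR adjusted p of 0.727. That alternative was added after the values were seen and assumes that knockout 2 varies like the controls. Because both high-share libraries are knockouts, the share and the genotype can hardly be told apart, and knockout 2 is the only knockout with a share in the control range. Among the 3 controls Hjurp followed the order of the share, at 24.3 CPM in control 1, 27.0 in control 2 and 35.9 in control 3. Over all libraries this order was not strict, and 3 controls are too few to judge it. Cenpb did not follow the share among the controls, at 128, 121 and 124 CPM in controls 1, 2 and 3. No cause of this order was tested. The neighbours of Hjurp on the opposite strand, Mroh2a and Trpm8, had 0 to 5 counts in every library.

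**Figure D2:**
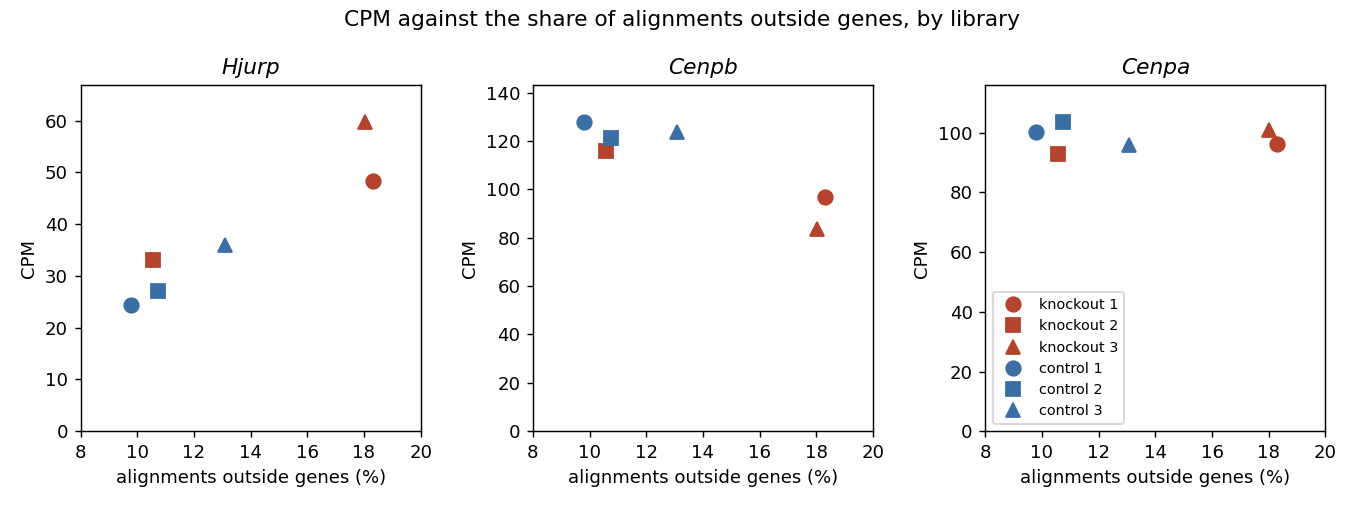
Level in CPM (vertical axis, from 0) of Hjurp, Cenpb and Cenpa against the percentage of alignments outside genes (horizontal axis) in each of the 3 knockout (red) and 3 control (blue) libraries. Knockouts 1 and 3, at 18.3% and 18.0%, have the highest Hjurp and the lowest Cenpb, whereas knockout 2 sits near the controls, and Cenpa shows no such order.

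Neither gene of the MIS18 complex was called. Oip5, which encodes MIS18 beta, had 509, 695 and 835 counts in knockouts 1, 2 and 3, against 540, 646 and 558 in controls 1, 2 and 3. Its levels were 19.6, 25.7 and 28.7 CPM in the knockouts and 18.5, 22.0 and 19.7 CPM in the controls. Knockouts 2 and 3 were above every control, but knockout 1 was within their range. Its log2 fold change was 0.30 ± 0.14 (SE), with a 95% interval of -0.02 to 0.62 and an edgeR adjusted p of 0.286. Leaving out 1 library moved it between 0.18 (without knockout 3) and 0.44 (without knockout 1, unadjusted p = 0.0045), and over its 18 alternatives the adjusted p ran from 0.118 to 0.697. In the GENCODE annotation some exons of Oip5 and of Nusap1, a spindle gene on the opposite strand, overlap, and the strand setting of the counting is not given in the sources used here. Nusap1 had a log2 fold change of -0.09, with 130 to 150 CPM in knockouts and 137 to 162 CPM in controls.

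Mis18a had 857, 933 and 1049 counts in knockouts 1, 2 and 3, against 1015, 1188 and 885 in controls 1, 2 and 3, or 33.02, 34.5 and 36.0 CPM against 34.8, 40.4 and 31.3 CPM. All 3 knockouts lay inside the range of the controls. Its log2 fold change was -0.04 ± 0.11 (SE), with a 95% interval of -0.28 to 0.20 and an edgeR adjusted p of 0.857.

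Among the DNA and nucleosome binding proteins, Cenpb had the lower mean in the knockouts. It had 2517, 3133 and 2438 counts in knockouts 1, 2 and 3, against 3726, 3565 and 3498 in controls 1, 2 and 3. In CPM the knockouts were at 97.0, 116 and 83.7 and the controls at 128, 121 and 124. Every knockout was below every control, narrowly so for knockout 2. The means were 98.8 ± 16.1 CPM in knockouts and 124 ± 3.32 CPM in controls (SD, n = 3 each), so the spread was wider in the knockouts. The log2 fold change was -0.33 ± 0.11 (SE), with a 95% interval of -0.58 to -0.08, an unadjusted p of 0.0142 and an edgeR adjusted p of 0.161. Cenpb was lowest in knockouts 3 and 1, the libraries with the most alignments outside genes. With that share as a covariate the log2 fold change was -0.16 ± 0.09 (edgeR adjusted p = 0.355), and knockout 2 alone against the controls gave -0.10 ± 0.11 (0.768). Without knockout 2 Cenpb was called lower, at -0.46 ± 0.08 and an edgeR adjusted p of 0.0076, and over its 18 alternatives the adjusted p ran from 0.0076 to 0.768. Cenpb shares exon sequence with Spef1 on the same strand in GENCODE, and Spef1 itself was at 7.24 to 9.83 CPM in knockouts and 8.03 to 11.1 CPM in controls.

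Cenpc1, the link from CENP-A to the kinetochore, had 2082, 2007 and 2246 counts in knockouts 1, 2 and 3, against 2260, 2690 and 2260 in controls 1, 2 and 3. These were 80.2, 74.1 and 77.1 CPM in the knockouts and 77.5, 91.5 and 79.9 CPM in the controls. Control 2 was high, and the other controls lay among the knockouts. For Cenpc1 the log2 fold change was -0.10 ± 0.08 (SE), with a 95% interval of -0.29 to 0.08 and an edgeR adjusted p of 0.509.

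Incenp, the scaffold that carries Aurora B to the inner centromere, gave the most even control values of the 7. It had 4459, 4477 and 5365 counts in knockouts 1, 2 and 3, against 4674, 4723 and 4552 in controls 1, 2 and 3. In CPM these were 172, 165 and 184 in the knockouts and 160.3, 160.6 and 160.9 in the controls. All knockouts were above all controls, by 4.48 CPM at the nearest pair. The log2 fold change was 0.11 ± 0.07 (SE), with a 95% interval of -0.04 to 0.27 and an edgeR adjusted p of 0.388. Incenp was highest in knockouts 3 and 1 as well: with the share of alignments outside genes as a covariate its log2 fold change was 0.06 ± 0.07 (edgeR adjusted p = 0.692), and knockout 2 alone against the controls gave 0.05 ± 0.11 (0.904). Knockout 3 had the highest Incenp, Hjurp and Oip5 and the lowest Cenpb of all 6 libraries.

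**Figure D3:**
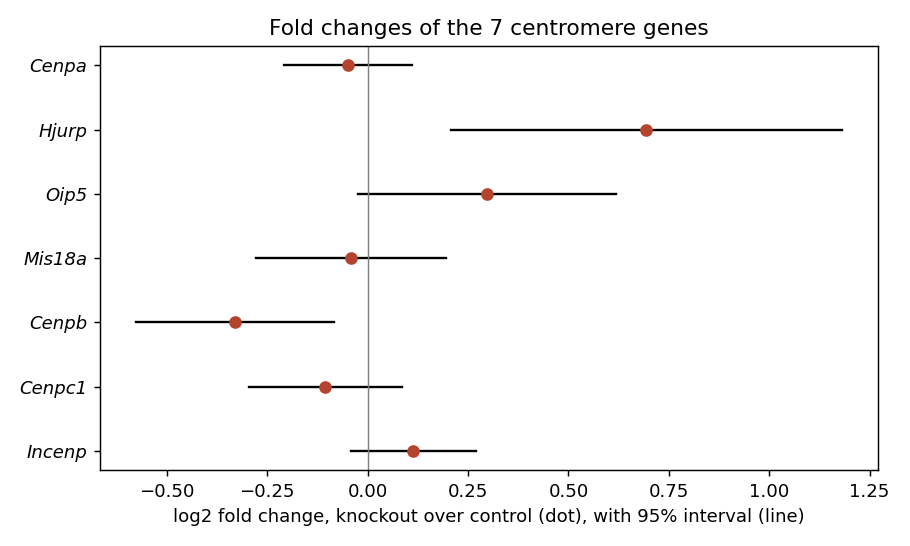
Log2 fold change of each gene, knockout over control (horizontal axis, dots), with its 95% interval (lines). The intervals of Hjurp (0.21 to 1.18) and Cenpb (-0.58 to -0.08) leave out 0 before adjustment over all genes, and the other 5 include it.

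Per length the order of the 7 genes was the same in both groups, except that Oip5 stood above Cenpb in the knockouts and below it in the controls. Cenpa at 65.9 and Incenp at 53.7 CPM per kb led in the knockouts, and Cenpa at 68.1 and Incenp at 49.6 CPM per kb in the controls. Mis18a, Cenpc1, Oip5 and Cenpb followed at 20.2 to 25.9 CPM per kb in knockouts and at 18.6 to 26.6 CPM per kb in controls, and among these 4 the only neighbours whose ranges of mean ± SD did not overlap were Cenpb and Oip5 in the controls. Hjurp was last, at 9.64 ± 2.75 CPM per kb in knockouts and 5.96 ± 1.24 CPM per kb in controls (SD, n = 3 each).

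Ratios of counts within a library need no scaling between libraries, and 21 were formed among the 7 genes. Hjurp had 0.503, 0.356 and 0.592 counts for each Cenpa count in knockouts 1, 2 and 3, against 0.243, 0.261 and 0.374 in controls 1, 2 and 3. Control 3 was above knockout 2, and a two-sided exact permutation test gave p = 0.2 (0.323 after Benjamini-Hochberg adjustment over the 21 ratios), where 3 against 3 embryos cannot go below 0.1. The groups were fully apart for 4 of the 21, each with the smallest possible exact p of 0.1 and an adjusted value of 0.323. Each of these ratios contains Incenp or Cenpb, whose groups did not overlap in CPM either, so they are not separate results. The share of such ratios over all pairs of genes was not computed. Cenpa to Incenp was 0.556 ± 0.00722 in knockouts and 0.622 ± 0.0245 in controls, and Cenpc1 to Incenp 0.445 ± 0.0243 in knockouts and 0.517 ± 0.0464 in controls. Cenpb to Incenp was 0.573 ± 0.123 in knockouts and 0.773 ± 0.0216 in controls, and Cenpb to Oip5 was 4.12 ± 1.07 in knockouts and 6.23 ± 0.692 in controls (SD, n = 3 each).

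The genes most like each member over the 6 libraries, by Pearson's r of log2 CPM among 9824 genes averaging 10 CPM or more, were as follows. Cenpa was most like Eogt (0.983) and Mettl10 (0.981), Hjurp like BC053749 (0.999) and Ythdc1 (0.997), and Cenpb like Cul3 (0.997) and Grb2 (0.993). For Cenpc1 they were Zufsp and Zfyve20, for Incenp Mcoln1 and Mical1, for Oip5 Zbtb26 and Dtnb, and for Mis18a Tdp1 and Trappc13, at 0.98 to 0.99. None of these 14 genes belongs to the kinetochore or mitosis lists, and a best match of this size was found for every member. The points of each comparison share their libraries and depth, and knockouts 1 and 3 stand apart from the rest.

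The rest of the pathway was set beside the members, with lists chosen by function. Neither DESeq2 nor limma-voom called any gene of the loading, inner kinetochore, outer kinetochore and passenger lists. Among 12 other genes described in CENP-A loading or its timing, none was called by edgeR, 1 had an unadjusted p under 0.05 with the lower mean in the knockouts (8.53% of all genes did), and the median log2 fold change was -0.06. Supt16, a subunit of the histone chaperone FACT, was at -0.22, Rbbp4, a histone binding protein, at -0.21, and the mitotic kinase gene Plk1, which licenses loading in human cells, at -0.15. Ect2, a regulator of cytokinesis, was at -0.11.

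In the inner kinetochore none of 15 genes was called, with 2 at an unadjusted p under 0.05, both with the lower mean in the knockouts, and a median log2 fold change of -0.06. Library medians of this list against the control mean were -0.06, -0.07 and -0.06 in knockouts 1, 2 and 3. In controls 1, 2 and 3 they were -0.07, 0.18 and -0.11, so only control 2 lay above the knockouts. Apitd1, which encodes CENP-S, was at 11.1, 10.7 and 8.58 CPM in knockouts 1, 2 and 3, against 13.7, 16.4 and 11.9 CPM in controls 1, 2 and 3. For Apitd1 the log2 fold change was -0.47 ± 0.15 (SE; edgeR adjusted p = 0.157), and no knockout reached the controls. Cenpl was at -0.34 (edgeR adjusted p = 0.162), Cenpm at -0.20 and Cenpt, whose product binds DNA and the outer kinetochore, at 0.28, with the groups of Cenpt overlapping.

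Of the 10 outer kinetochore genes none was called and 1 had an unadjusted p under 0.05. Ndc80, which encodes the microtubule binding subunit, was at 59.5, 64.4 and 64.2 CPM in knockouts 1, 2 and 3, against 70.9, 78.6 and 66.8 CPM in controls 1, 2 and 3, a log2 fold change of -0.20 ± 0.08 (SE; edgeR adjusted p = 0.239). The others named by rule were Mis12 at -0.14, Nuf2 at -0.13 and Spc25 at -0.12.

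Of the partners of INCENP and the genes that place it, 7 of 8 were tested and none was called or had an unadjusted p under 0.05, with Aurkc under the filter on low counts. Aurkb, the kinase that INCENP activates, was at 82.8, 83.2 and 87.6 CPM in knockouts 1, 2 and 3, against 75.9, 77.9 and 74.5 CPM in controls 1, 2 and 3. Like Incenp it had all knockouts above all controls, at a log2 fold change of 0.15 ± 0.07 (SE) and an edgeR adjusted p of 0.264. The other genes did not share this: folds were below 0 in 6 of the 7 tested, with a median of -0.07. The groups did not overlap for 1 of 7, Aurkb, against 24.1% of all genes. Birc5 and Cdca8, which encode other subunits of the passenger complex, were at -0.07 and -0.03, with the groups overlapping. The shugoshin gene Sgol2 was at -0.16, the histone kinase Gsg2 at -0.13 and the checkpoint kinase Bub1 at -0.10.

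**Figure D4:**
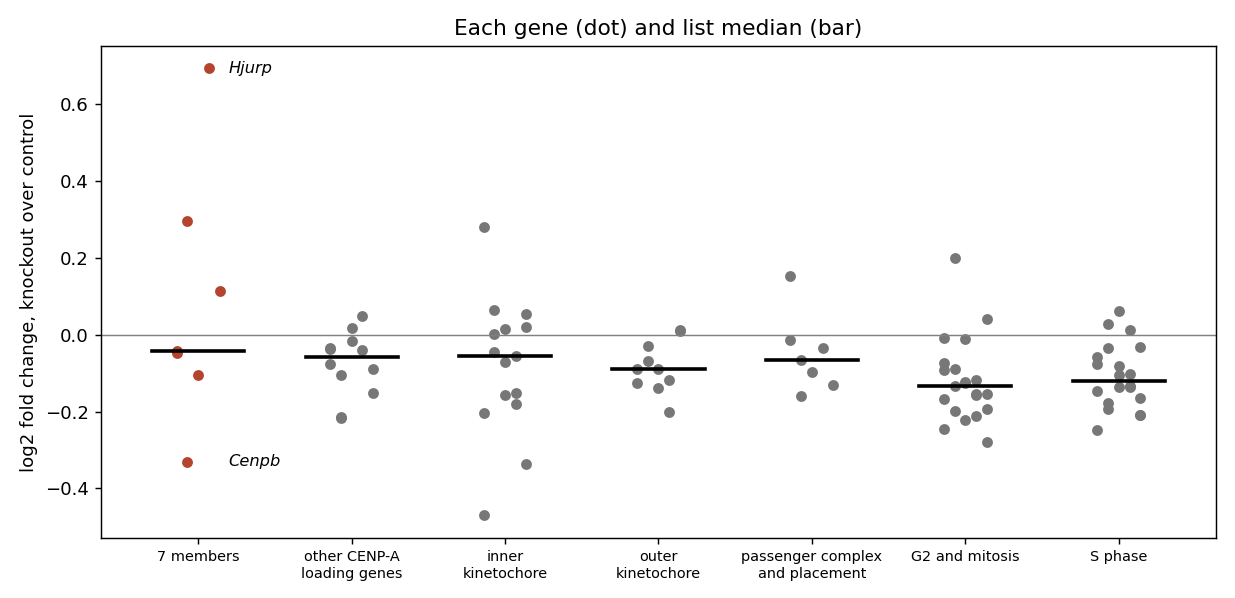
Log2 fold change, knockout over control (vertical axis), of each tested gene (dots) in the 7 members (red) and in 6 related lists (grey), with the list median as a bar. Hjurp and Cenpb, named beside their dots, lie at 0.69 and -0.33, and the medians of the related lists run from -0.13 to -0.06. Taken per library against the control mean (not drawn), the list medians of the groups overlap, except for the outer kinetochore and the G2 and mitosis lists. Control 2 has the highest library median in each related list.

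Markers of dividing cells were set beside these genes. Of 21 genes of G2 and mitosis none was called by edgeR or limma-voom and 1 by DESeq2, Cenpf. At an unadjusted p under 0.05 there were 1 with the higher and 5 with the lower mean in the knockouts, against 10.7% and 8.53% of all genes tested. Folds were below 0 in 19 of the 21, against 7578 of all 15075 genes, and the median log2 fold change was -0.13. Against the control mean this list had medians of -0.16, -0.12 and -0.16 in knockouts 1, 2 and 3, and of -0.04, 0.13 and -0.10 in controls 1, 2 and 3. Of 20 genes of S phase none was called by any of these tools, 1 had an unadjusted p under 0.05 with the lower mean in the knockouts, 17 had folds below 0 and the median was -0.12. Library medians of the S phase list were -0.13, -0.08 and -0.14 in knockouts 1, 2 and 3. In controls 1, 2 and 3 they were -0.04, 0.16 and -0.11, so control 3 lay among the knockouts. The lowest p values of these lists belonged to Cenpf at -0.28 (edgeR adjusted p = 0.114), the spindle motor Kif11 at -0.25, the kinetochore motor Cenpe at -0.21 and, with the higher mean in the knockouts, the phosphatase Cdc25b at 0.20. In S phase they included the replication genes Fen1 at -0.25, Pcna at -0.21 and Tyms at -0.16. Markers of neurons, largely cells that no longer divide, were below 0 in 10 of 10 genes, with a median of -0.32. Of these, 1 was called by edgeR (Nhlh1) and 2 by DESeq2 (Nhlh1 and Tubb3). At an unadjusted edgeR p under 0.05, 6 of 10 had the lower mean in the knockouts, against 8.53% of all genes tested. The knockouts lay fully below the controls for 5 of 10, against 12.3% of all genes. The neuronal markers summed to 736 to 972 CPM in knockouts and 883 to 1182 CPM in controls. Erythroid markers, of blood cells that still divide at this stage, summed to 5976 to 9615 CPM in knockouts and 8045 to 10231 CPM in controls, with none of 11 tested called by edgeR, DESeq2 or limma-voom or at an unadjusted p under 0.05. The part of these cell types in the levels of the 7 genes was not tested.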

How the data were processed

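Polyadenylated RNA of whole embryos was sequenced from strand-marked libraries (KAPA kit), per the labels' protocols. The authors deposited whole-number counts per gene symbol and per repeat name, with no normalization. Per the submitters' processing notes the tools were HTSeq, Bowtie2, TopHat2 and Trimmomatic, with the mm9 build. The sources used here do not give the strand setting of the counting or the gene annotation, and reads aligned more than once were not counted. Rows that name no gene were left out of library sizes and tests; those outside genes held 9.79% to 18.3% of alignments, and those not aligned uniquely 18.2% to 22.6%.

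Groups and replicate numbers came from the sample titles. The test was edgeR's robust quasi-likelihood F test (edgeR 4.0.16, R 4.3.3) after TMM scaling, on all 6 libraries with group as the only term. Low genes were removed by filterByExpr (minimum count 10, minimum total 15). P-values were adjusted by Benjamini-Hochberg over 15075 genes. Standard errors are |log2 fold change| divided by √F. Alternatives used DESeq2 1.42.0, limma-voom (limma 3.58.1), other scalings and filters, a covariate, a block and libraries left out. Members, lists and tests were chosen with earlier results of these data known. Genes outside the members were drawn from the 4 with the smallest p in each list, the called ones and the 2 most like each member. As exceptions, Mroh2a, Trpm8, Nusap1, Spef1, Aurkc, Cd68, Birc5 and Cdca8 are named as neighbours or to complete a count or a complex. Lengths and gene overlaps came from GENCODE M21 (GRCm38), matched by symbol, so no gene coordinates are given for the mm9 counts.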

Additional observations from a re-analysis of the deposited data

How the results depend on the processing

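No member was called under the 3 other scalings, either other filter, limma-voom, the fit without robust priors, the covariate, without the ribosomal RNA gene or at an adjusted p under 0.1. DESeq2 called 1 (Hjurp). Leaving out libraries gave 0 to 2 called members, with 2 only without knockout 2, and 1 to 3 at an unadjusted p under 0.05, against 0 with the share outside genes as a covariate. The members' median log2 fold change was 0.019 with library totals, under which Cenpa (0.011) and Mis18a (0.019) turned positive while the median of all genes stood at 0.06, and ran from -0.072 to 0.061 with libraries left out, where Mis18a ran from -0.12 to 0.061, the highest without control 2. Genes called over the whole table numbered 227, against 109 with a mean of at least 1 CPM, 779 by DESeq2, 748 with the covariate, 528 at an adjusted p under 0.1 and 60 to 1663 with libraries left out. The fold of the Hjurp to Cenpa ratio was 1.65 and ran from 1.47 to 1.92 with single libraries left out. The cause of these shifts was not tested.

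Deviations of same-numbered embryos from their group means had r of -0.09, 0.17 and 0.26. These values lay inside the range of -0.42 to 0.32 for embryos of different numbers. Whether the numbers pair embryos cannot be settled from so few libraries. With the replicate number as a block 589 genes were called and 1 member, Hjurp at 0.67 with an edgeR adjusted p of 0.0308. Each of the 7 genes had at least 509 counts in every library, so counts near 0 do not limit them.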

Other observations

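Reads assigned to GSAT_MM and SYNREP_MM were too few to compare. GSAT_MM, the repeat name of the mouse major satellite, had 8, 14 and 10 counts in knockouts 1, 2 and 3, against 9, 6 and 12 in controls 1, 2 and 3. SYNREP_MM had 2, 0 and 2 counts in the knockouts and 0, 1 and 2 in the controls. The repeat tables held 2661391 to 3106068 counts in knockouts and 3085867 to 4600118 in controls. The libraries were made from polyadenylated RNA and reads aligned more than once were not counted, and these numbers describe only reads aligned to a single place.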
